A study of Mus musculus with 12 samples.

Results

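Vertical sleeve gastrectomy (VSG) and sham surgery were compared here in the liver transcriptome of obese mice, with RNA-seq of 2 livers of each kind. These 4 RNA samples are part of a series of 12, which also holds RNA of 2 chow-fed livers and accessible chromatin from the livers of all 3 groups. The level of a gene was the sum of its transcripts' FPKM (mapped fragments, scaled to the length of the transcript and to the size of the library), and a gene was tested when it reached an FPKM of 1 in at least 2 of the 4 mice, which 9334 of 24023 genes did. A further 14689 genes were too low, 124 of the tested genes passed through the VSG mice alone and 104 through the Sham mice alone. Differences are given as VSG minus Sham on the scale of log2(FPKM + 1), which understates the change of low genes. Genes whose mice in VSG all lay above, or all below, those in Sham are said to show no overlap between the groups.

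All animals were male C57BL/6J mice. The Sham and VSG mice were given a high-fat diet with 60% of its calories from fat at 8 weeks of age, underwent surgery after 14 weeks, took a liquid diet for 4 days and returned to the high-fat diet for another 14 weeks. In VSG about 80% of the stomach was removed along its lateral side, whereas the stomach of Sham mice was exposed and pressed with forceps without resection. The Control mice ate chow for 28 weeks and were not operated on, so they differ from Sham mice in diet and in surgery at once. Sham and VSG mice had matched body weights when they were assigned. Body weight at collection was not analysed here, so surgery and a change in weight cannot be told apart. Each RNA sample is the liver of a single mouse, and p-values measure the spread between these few mice.

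The 2 Sham livers differed from each other more than the livers of either other group did. Of 8057 genes above 0 in all 6 mice, 15.9% differed at least 2-fold between the Sham mice, 9.97% between the VSG mice and 4.08% between the Control mice. Any VSG mouse set against any Sham mouse differed in 10.1 to 12.8% of these genes, which is less than the Sham mice differed from each other. The spacing of the lowest values put the relative depth of Sham mouse 1 at 0.677, Sham mouse 2 at 1.17, VSG mouse 1 at 1.56 and VSG mouse 2 at 0.919, with Control mouse 1 as 1, so the shallowest library was a Sham library. Cufflinks listed some expressed genes at exactly 0, among them 8 of 81 genes of ribosomal proteins in at least 1 of the 4 mice, so an FPKM of 0 was read as a listing and not as absence. Of the genes tested, 1034 were listed at 0 in at least 1 of the 4 mice, and 20.8% had a transcript that was listed at 0 in one mouse while holding at least 10% of the gene in another.

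The liver receives nutrients, gut hormones and microbial products from the portal vein, and hepatocytes answer with programs that are well described. Interleukin 6 acts through STAT3 to induce acute phase proteins and the iron hormone hepcidin, which removes the iron exporter ferroportin from cell membranes. The nuclear receptors CAR and PXR induce Cyp2b, Cyp2c and Cyp3a enzymes, FXR restrains bile acid synthesis, and PPARα drives the oxidation of fatty acids.

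Both VSG mice lay above both Sham mice in 1761 genes (18.9% of the genes tested) and below them in 907 (9.72%). The surplus of higher genes depended on scaling, since 1272 genes were higher and 1287 lower when the libraries were rescaled by the median of their ratios, which moved the median of all genes by 0.08 on the log2 scale. With a difference of at least 2-fold besides, 379 genes were higher (4.06%) and 208 lower (2.23%) after VSG, and 144 and 116 of these, respectively, were listed at 0 in at least 1 mouse. The same counts for Sham against Control mice, a comparison that shares the Sham mice, were 536 higher (5.74%) and 444 lower (4.76%) in Sham, out of 2475 genes (26.5%) above and 1832 (19.6%) below both Control mice. They were made over the same genes, filtered on Sham and VSG levels. Genes that reached the filter level in Control mice alone could therefore not enter the lower count. In a stricter reading, the nearest mice of the VSG and Sham groups were at least 2-fold apart in 78 higher (0.836%) and 67 lower genes (0.718%). In a limma fit over all 6 mice with Benjamini-Hochberg adjustment, 5 genes (0.0536%) passed an FDR of 10%, 3 of them higher (0.0321%) and 2 lower (0.0214%) in VSG. An unadjusted p under 0.05 was reached by 470 genes (5.04%). With 2 mice a group, an exact 2-sided permutation test of a single gene cannot go below 0.333. The genes described from here on are therefore ordered by their values in each mouse, and none but these 5 passed the adjusted test. The median difference over all genes was 0.08, and 60.2% of genes had a higher mean in VSG.

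All 5 genes that passed were listed at 0 in both mice of a group. They reached the expression filter only through the group in which they were high, so they had to differ, and their adjusted p-values are given as a description. The microRNA gene Mir1929 was at 35.7 and 30.2 FPKM in the VSG mice and was listed at 0 in the Sham and Control mice (adjusted p = 0.0246). Krcc1, a gene for a protein rich in lysine, was at 41.03 and 34.4 FPKM in VSG and at 9.98 and 15.5 FPKM in Control mice, but was listed at 0 in both Sham mice (adjusted p = 0.0318). Dedd, which encodes a death effector domain protein, showed the same arrangement, at 9.55 and 10.1 FPKM in VSG, 13.1 and 9.65 FPKM in Control and 0 in Sham mice (adjusted p = 0.0497). In the other direction, the small RNA gene AF357399 was at 39.1 and 22.6 FPKM in Sham mice and the small nucleolar RNA Snord16a at 45.7 and 106 FPKM, while both were listed at 0 in the VSG mice (adjusted p = 0.0497 for each). Short RNAs hold few fragments that can be placed, and no gene passed when those listed at 0 in a mouse were left out. Among the genes above 0 in all 4 mice, the smallest adjusted p was 0.213.

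**Figure D1:**
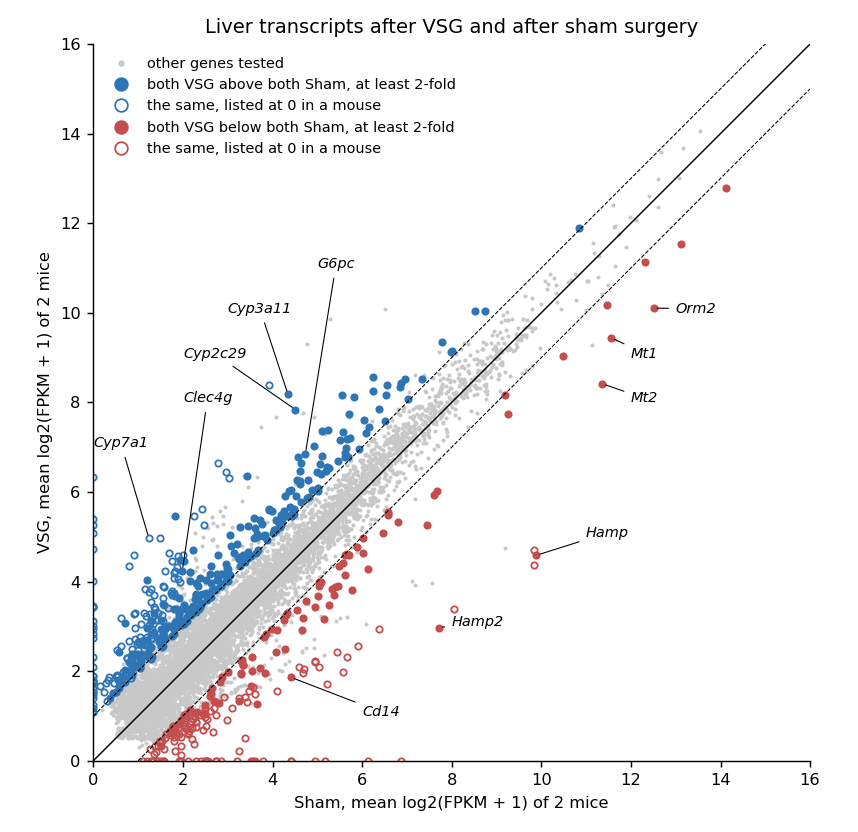
Each point is 1 of 9334 genes, with the mean log2(FPKM + 1) of the 2 Sham mice on the horizontal and of the 2 VSG mice on the vertical axis. The solid line marks equal levels and the dashed lines a 2-fold difference. Filled colours mark genes without overlap between the groups and with at least 2-fold difference, and open circles those of them that were listed at 0 in a mouse. Hamp and Hamp2 lie farthest below the line among the filled points, and Cyp3a11 and Cyp2c29 are among those farthest above it.

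The largest difference among the genes above 0 in all 4 mice was that of hepcidin. Hamp, which encodes the hormone, was at 1253 and 718 FPKM in the Sham mice and at 99.7 and 4.74 FPKM in the VSG mice, a difference of −5.30 ± 1.34 (SE, n = 2 per group, adjusted p = 0.8). Control mice had 2052 and 2407 FPKM, so that the VSG mice lay below both other groups. Hamp2, the neighbouring copy on chromosome 7, was at 272 and 160.3 FPKM in Sham and 23.05 and 1.56 FPKM in VSG mice (−4.74 ± 1.06, adjusted p = 0.674), with 575 and 542 FPKM in Control mice. The 2 genes are near-identical copies, so the division of reads between them is uncertain, but every VSG value lay below every Sham and Control value of the same gene. VSG mouse 2 was lower than VSG mouse 1 in both genes, and Sham mouse 2 lower than Sham mouse 1.

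The promoters of both hepcidin genes are shown because they carry the same copy of the STAT motif TTCNNNGAA, which reads the same on either strand and is given in capitals. The sequences are the 250 bases before the transcription start in RefSeq on GRCm38.p6, written 5′ to 3′ on the gene's strand.
Hamp (chr7:30944030-30944279, minus strand): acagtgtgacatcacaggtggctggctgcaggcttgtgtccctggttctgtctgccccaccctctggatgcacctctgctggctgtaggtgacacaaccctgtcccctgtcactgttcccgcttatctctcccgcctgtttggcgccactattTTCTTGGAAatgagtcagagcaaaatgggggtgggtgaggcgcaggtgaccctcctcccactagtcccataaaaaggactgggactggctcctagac
Hamp2 (chr7:30924182-30924431, minus strand): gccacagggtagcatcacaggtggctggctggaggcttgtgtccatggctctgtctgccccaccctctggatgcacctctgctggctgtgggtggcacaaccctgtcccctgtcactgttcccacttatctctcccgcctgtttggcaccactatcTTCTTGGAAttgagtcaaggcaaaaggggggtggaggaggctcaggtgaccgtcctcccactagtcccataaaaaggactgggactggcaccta
In both, the capitals read TTCTTGGAA. They lie at positions −97 to −89 in Hamp and −94 to −86 in Hamp2, where −1 is the last base before the start. A match is a description of letters and not of a bound factor.

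The other genes of iron handling lay in both directions. Of the 15 tested besides Hamp and Hamp2, 3 were higher (20%) and 2 lower (13.3%) without overlap, against 18.9% higher and 9.72% lower among all genes. Their median difference was 0.04, against 0.08 over all genes, and it lay between −0.08 and 0.18 when 1 mouse was left out. The transferrin receptor Tfrc, whose mRNA is known to be stabilised when iron is low, was at 2.54 and 2.99 FPKM in Sham and 7.08 and 9.66 FPKM in VSG mice (1.30 ± 0.27, adjusted p = 0.618), and the 2 VSG mice were also above the 2.56 and 1.76 FPKM of Control mice. Aco1, which encodes the iron regulatory protein 1, was at 6.79 and 28.04 FPKM in Sham and 39.6 and 56.5 FPKM in VSG mice (1.68 ± 0.64). Sham mouse 2 stood apart from Sham mouse 1 in this gene, and both were below the VSG mice. Ferritin heavy chain Fth1 was at 2177 and 1211 FPKM in Sham and 1541 and 1894 FPKM in VSG mice, and ferroportin, Slc40a1, at 17.6 and 8.47 and 6.74 and 22.9 FPKM. Both genes overlapped between the groups, as did Tfr2 and Hfe, the iron sensors of the hepatocyte. Among targets of the BMP pathway, the iron-dependent inducer of hepcidin, Atoh8 was lower at 1.44 and 3.41 in Sham and 0.858 and 1.37 FPKM in VSG mice, Smad6 higher at 0.924 and 0.805 and 1.27 and 1.32 FPKM, and Id1 overlapped at 3.86 and 5.12 and 4.25 and 3.04 FPKM. Smad6, 1 of the 3 higher iron genes, passed the filter through the VSG mice alone, so it had to differ. Hjv, the BMP co-receptor hemojuvelin, was at 50.96 and 50.01 FPKM in Sham and 42.4 and 29.6 FPKM in VSG mice, without overlap.

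Metallothioneins, the small proteins that bind zinc and copper and that glucocorticoids and interleukin 6 also induce, were far lower after VSG. Mt2 was at 1861 and 3699 FPKM in Sham and 378 and 307 FPKM in VSG mice (−2.94 ± 0.46, adjusted p = 0.412). Mt1 was at 2826 and 3221 FPKM in Sham and 869.8 and 555 FPKM in VSG mice (−2.12 ± 0.36, adjusted p = 0.442). The Control mice lay with or above the Sham mice in both genes, with 2675 and 4196 FPKM for Mt2 and 4506 and 5629 FPKM for Mt1. The lowest non-VSG value was more than 3 times the highest VSG value in each gene. Of the list that joins them with targets of Nrf2, the sensor of oxidative stress, 5 of 18 were lower (27.8%), Mt1 and Mt2 among them, and 3 higher (16.7%) without overlap. The higher share was close to the 18.9% of all genes, and the lower share above their 9.72%. Sulfiredoxin, Srxn1, was lower, at 21.7 and 15.9 and 5.75 and 12.7 FPKM, as was heme oxygenase Hmox1, at 20.5 and 31.5 and 11.4 and 16.4 FPKM. Gclc, the catalytic subunit of glutathione synthesis, was higher, at 14.3 and 37.9 FPKM in Sham and 47.4 and 117 FPKM in VSG mice.

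Acute phase proteins, which the liver makes in inflammation, had a lower mean in VSG for all 19 members tested. Of these, 11 were lower without overlap (57.9%, against 9.72% of all genes), 10 of them at least 2-fold, and 0 were higher. Hamp, Mt1 and Mt2, described above, belong to this list and are counted among the 11 and the 10. The median difference was −1.45, and leaving out 1 mouse moved it between −2.06 and −0.80. Orm2, an orosomucoid, was at 4769 and 7138 FPKM in Sham and 2248 and 538 FPKM in VSG mice (−2.41 ± 0.72), against 178 and 180.5 FPKM in Control mice. Haptoglobin, Hp, which binds free hemoglobin, was at 14410.2 and 22141 FPKM in Sham and 11079.6 and 4459 FPKM in VSG mice. The fibrinogen chain gene Fgg was at 3659.7 and 6986 FPKM in Sham and 2897 and 1719 FPKM in VSG mice, and the metalloreductase Steap4 at 140.2 and 266 and 57.96 and 61.3 FPKM. In Orm2, Hp and Fgg, VSG mouse 2 was the lower of its pair and VSG mouse 1 came closer to the Sham mice. Steap4 differed little between the VSG mice. Lipocalin 2, Lcn2, an iron-scavenging defence protein, overlapped because VSG mouse 1 resembled Sham mouse 1, at 1932 and 5279 FPKM in Sham and 2069 and 214 FPKM in VSG mice. The serum amyloid P gene Apcs overlapped in the same way, at 1125 and 4400.2 and 1316 and 293 FPKM. C-reactive protein, Crp, was at 239.8 and 298 FPKM in Sham and 262 and 244 FPKM in VSG mice, with both VSG values inside the Sham range. The serum amyloid A genes were not analysed here.

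Signalling genes of the same cascade were mixed. Of 14 genes of interleukin 6 and STAT3 signalling tested, 4 were lower (28.6%, against 9.72% of all genes) and 2 higher (14.3%, against 18.9%) without overlap, with a median of −0.36 that became 0.03 without Sham mouse 2. Socs3, the feedback inhibitor that STAT3 induces, was at 18.6 and 31.8 FPKM in Sham and 10.8 and 3.79 FPKM in VSG mice (−1.75 ± 0.54, adjusted p = 0.927). Bcl3, a coregulator of NF-κB, was at 34.8 and 33.8 FPKM in the Sham mice and at 18.3 and 3.10 FPKM in the VSG mice (−1.99 ± 0.73). Cebpd, a transcription factor of the acute phase, was low throughout, at 2.56 and 2.71 and 1.55 and 1.18 FPKM. Stat3 itself overlapped, at 6.26 and 48.2 FPKM in Sham and 25.7 and 25.5 FPKM in VSG mice, and so did Jak1, at 12.5 and 21.4 and 14.5 and 17.9 FPKM. The kinase gene Pim3 lay in the other direction, at 19.7 and 28.4 FPKM in Sham and 45.8 and 38.3 FPKM in VSG mice.

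**Figure D2:**
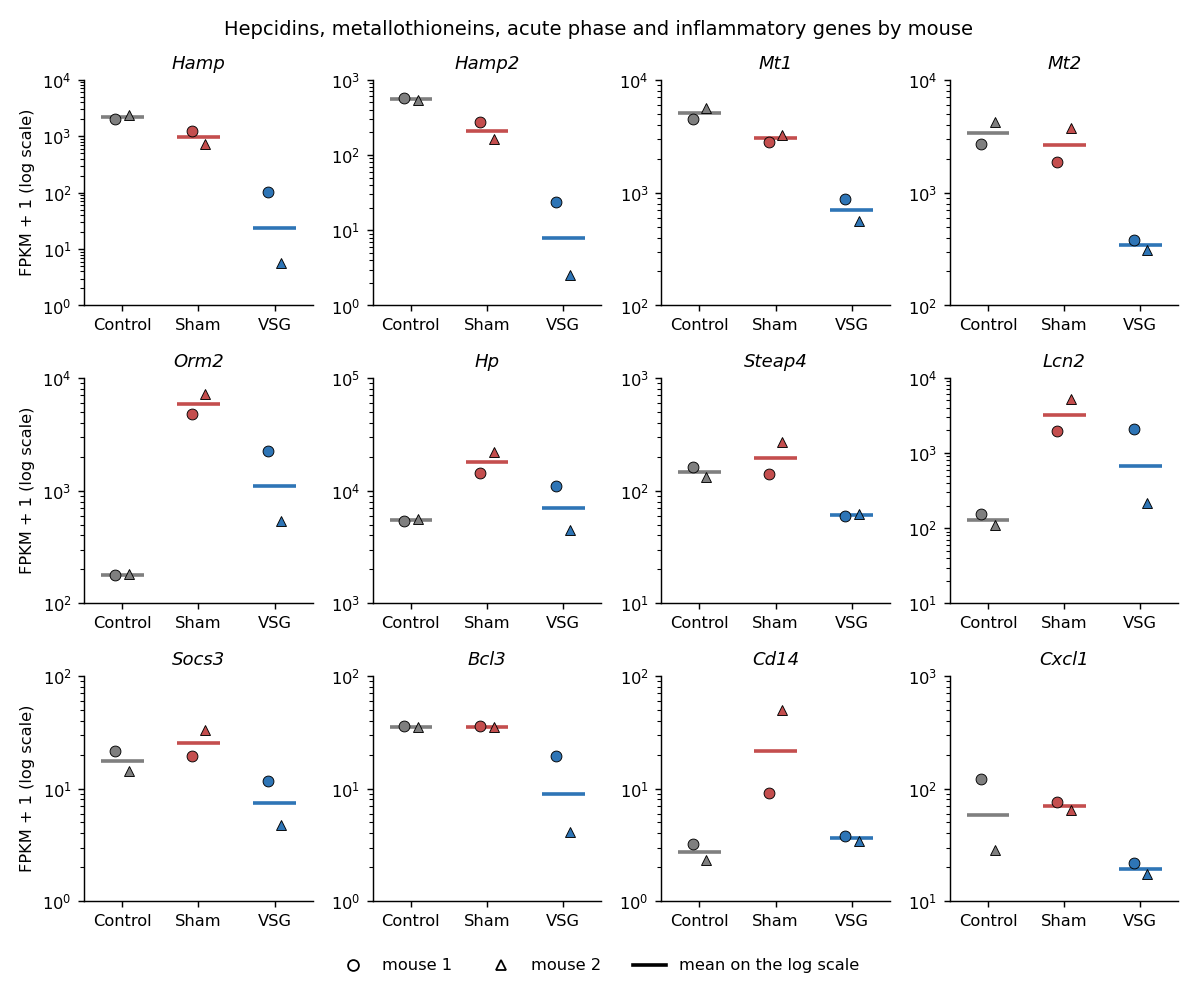
FPKM + 1 on a log axis for 12 genes in each of the 6 mice (circles, mouse 1 of a group; triangles, mouse 2; lines, mean on the log scale of n = 2). The VSG mice lie below both other groups in Hamp, Hamp2, Mt1 and Mt2. In Orm2 they lie between Control and Sham mice, and Lcn2 overlaps between Sham and VSG.

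Promoters of 3 further genes of this response are given to show how the STAT letters, and the C/EBP letters TTGCNNAA sought on both strands, sit before their starts. The genes were chosen after their values were seen, and because they hold a match. The promoters of Bcl3, Mt1 and Il1rn held neither set of letters, and of 13 promoters of the interleukin 6 and STAT3 list only that of Socs3 held the STAT letters (7.69%, near the 7.18% of all promoters).
Socs3 (chr11:117969367-117969616, minus strand): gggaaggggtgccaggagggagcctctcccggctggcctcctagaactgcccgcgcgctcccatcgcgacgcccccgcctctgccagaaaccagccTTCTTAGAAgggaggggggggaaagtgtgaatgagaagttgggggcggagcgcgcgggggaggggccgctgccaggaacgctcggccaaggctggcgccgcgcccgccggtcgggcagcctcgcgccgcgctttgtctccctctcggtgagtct
Steap4 (chr5:7960222-7960471, plus strand): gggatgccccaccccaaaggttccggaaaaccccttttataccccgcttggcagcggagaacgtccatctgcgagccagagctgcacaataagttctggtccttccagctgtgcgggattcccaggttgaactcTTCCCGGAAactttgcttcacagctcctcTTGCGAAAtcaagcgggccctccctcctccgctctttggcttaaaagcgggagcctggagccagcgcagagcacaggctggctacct
Orm2 (chr4:63362199-63362448, plus strand): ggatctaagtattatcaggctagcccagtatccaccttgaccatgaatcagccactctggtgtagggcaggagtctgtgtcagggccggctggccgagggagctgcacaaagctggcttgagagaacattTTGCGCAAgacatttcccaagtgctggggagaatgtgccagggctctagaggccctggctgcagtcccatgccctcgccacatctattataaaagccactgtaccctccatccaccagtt
The capitals mark the STAT match TTCTTAGAA in Socs3, the STAT match TTCCCGGAA followed by the C/EBP match TTGCGAAA in Steap4, and the C/EBP match TTGCGCAA in Orm2. Among the 14 acute phase genes with a promoter in the table, 4 held the STAT letters (28.6%) and 4 the C/EBP letters, against 7.18% and 9.55% of all 27025 mouse promoters. Of the promoters of genes at least 2-fold lower without overlap, 10 of 160 held the STAT letters (6.25%), and of those at least 2-fold higher 18 of 298 (6.04%). The share was 5.98% of the tested genes, so each set as a whole was near the background. The promoter of Dbp, a gene higher after VSG, also held the STAT letters. Those of Mt2, which was lower, and Nr1d1, which was higher, held the C/EBP letters. The C/EBP letters also stood in 7 of the 23 promoters of CAR and PXR targets, a list whose median lay in the other direction.

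Of 19 genes of Toll-like receptor and NF-κB signalling tested, 7 were lower without overlap (36.8%, against 9.72% of all genes), 0 higher and 12 overlapped. The median of the list was −0.08, and it lay between −0.32 and −0.05 when 1 mouse was left out. Cd14, the co-receptor for bacterial lipopolysaccharide, was at 8.13 and 48.97 FPKM in the Sham mice and 2.82 and 2.45 FPKM in the VSG mice (−2.56 ± 0.81, adjusted p = 0.933), and at 2.25 and 1.31 FPKM in Control mice. The Sham mice differed widely from each other, and both were above the VSG mice. Slpi, a secreted inhibitor of leukocyte proteases, was at 8.31 and 16.3 FPKM in Sham and 2.36 and 0.741 FPKM in VSG mice (−2.39 ± 0.46, adjusted p = 0.533), and below 1 FPKM in Control mice. Tlr2 was at 2.60 and 2.94 FPKM in Sham and 0.853 and 1.24 FPKM in VSG mice, the adaptor Myd88 at 14.3 and 12.1 and 8.73 and 8.94 FPKM, and the inhibitory kinase Irak3 at 1.36 and 1.98 and 0.621 and 0.637 FPKM. Irak3, 1 of the 7 lower genes, passed the filter through the Sham mice alone, so it had to differ. Tlr4, Tnf and Il1b did not reach the filter.

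Of 12 chemokines tested, 3 were lower (25.00%, against 9.72% of all genes) and 0 higher without overlap. Cxcl1, which attracts neutrophils, was at 74.9 and 63.9 FPKM in Sham and 20.7 and 16.5 FPKM in VSG mice (−1.85 ± 0.70, adjusted p = 0.951). The Control mice disagreed in this gene, at 120.4 and 27.3 FPKM, and this spread is part of its SE and p-value. Of 6 neutrophil markers tested, 3 were lower without overlap (50%, against 9.72% of all genes), 0 higher and 3 overlapped. Among the lower ones, S100a8 was at 21.6 and 23.2 FPKM in Sham and 11.2 and 7.74 FPKM in VSG mice. S100a9 was at 18.2 and 19.9 and 9.43 and 8.40 FPKM. Chil1, a chitinase-like protein of inflamed tissue, was at 17.03 and 6.35 FPKM in Sham and 2.65 and 1.78 FPKM in VSG mice (−1.85 ± 0.48), and below 1 FPKM in Control mice. The tetraspanin Cd63 was at 27.2 and 106 FPKM in Sham and 9.19 and 18.4 FPKM in VSG mice, with 4.21 and 4.69 FPKM in Control mice. In Chil1, Cd63, Slpi and Cd14 every Sham value lay above every VSG value, and every VSG value above every Control value, an order that was noticed after the values were seen.

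Of 23 interferon-stimulated genes, 1 was higher and 1 lower without overlap (4.35% each, under both shares of all genes), and of 7 genes of class II antigen presentation 0 in either direction. Cd74, the invariant chain, was at 52.3 and 16.9 FPKM in Sham and 21.8 and 51.5 FPKM in VSG mice. Of 37 complement and coagulation genes, 4 were higher (10.8%) and 5 lower (13.5%) without overlap, against 18.9% higher and 9.72% lower among all genes. The mannose-binding lectins of complement activation went apart, as Mbl2 was at 158 and 82.9 FPKM in Sham and 338 and 306 FPKM in VSG mice (1.48 ± 0.36), whereas Mbl1 was at 525 and 357 and 336 and 215 FPKM (−0.69 ± 0.34). Kininogen, Kng1, was lower in VSG, at 1424 and 2969 FPKM in Sham and 959 and 1185 FPKM in VSG mice.

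Many genes of the endoplasmic reticulum stress response, chaperones and folding enzymes among them, were lower after VSG, mostly by small amounts. Of 26 genes of this response tested, 14 were lower without overlap (53.8%, against 9.72% of all genes), 1 was higher and 11 overlapped. Only 2 of the lower ones, Chac1 and Sdf2l1, reached 2-fold. The median difference was −0.34, and it stayed between −0.59 and −0.16 when any 1 mouse was left out. Calreticulin, Calr, was at 628 and 458 FPKM in Sham and 368 and 250.5 FPKM in VSG mice. Hspa5, the chaperone BiP, was at 238 and 238 FPKM in Sham and 218 and 105 FPKM in VSG mice, and its cochaperone Sdf2l1 at 45.5 and 23.5 and 16.4 and 13.6 FPKM. The secreted factor Manf was at 36.9 and 32.7 and 27.3 and 11.1 FPKM, against 14.1 and 16.9 FPKM in Control mice. VSG mouse 2 was the lower of the VSG mice in each of these 4 genes. Herpud1, a component of the degradation machinery, was the member that lay in the other direction, at 143 and 99.8 and 166 and 200.3 FPKM. Xbp1, the transcription factor of the response, overlapped at 68.3 and 171 and 97.2 and 76.1 FPKM. Outside the endoplasmic reticulum, 3 of 14 heat shock proteins were lower (21.4%, against 9.72% of all genes) and 1 higher (7.14%, against 18.9%) without overlap.

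Part of the drug-metabolising enzymes lay in the other direction, higher after VSG. Among targets of CAR and PXR, 9 of 25 were higher without overlap (36.0%, against 18.9% of all genes), each at least 2-fold. Of the others, 1 was lower (4%, against 9.72%) and 15 overlapped, and the median difference of the list was 1.23. Leaving out 1 mouse moved the median between 0.89 and 2.06. A further 7 of the 32 genes of the list did not reach the filter. Cyp2b10, below the filter, was at 0.0389 and 0.009 FPKM in Sham and 0.135 and 0 FPKM in VSG mice. Its Control values were 8.46 and 8.81 FPKM. Cyp3a11, the main Cyp3a enzyme of mouse liver, was at 48.6 and 7.32 FPKM in Sham and 100.1 and 828 FPKM in VSG mice (3.83 ± 1.27, adjusted p = 0.95), against 1603 and 1293 FPKM in Control mice. Its value in VSG mouse 1 was nearer to that in Sham mouse 1 than to that in VSG mouse 2. Cyp2c29 was at 41.5 and 11.2 FPKM in Sham and 123 and 424 FPKM in VSG mice (3.33 ± 0.83, adjusted p = 0.788), and at 339 and 483 FPKM in Control mice, so VSG mouse 2 reached the Control range. Cyp2b9, an enzyme that is higher in female than in male mice, was at 8.43 and 0.324 FPKM in Sham and 17.9 and 103 FPKM in VSG mice (3.65 ± 1.20), whereas the Control mice had 0.0562 and 0.0675 FPKM. In Cyp3a11, Cyp2c29 and Cyp2b9 VSG mouse 2 was the highest and Sham mouse 2 the lowest of the 4.

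In the Cyp2c family 6 of 10 genes were higher without overlap (60.0%) and 0 lower, and in the Cyp3a family 4 of 7 (57.1%) and 0, against 18.9% higher and 9.72% lower among all genes. Cyp2c37 was at 62.5 and 17.8 FPKM in Sham and 119 and 224 FPKM in VSG mice, and Cyp2c50 at 148 and 20.6 and 217 and 355 FPKM. Cyp2c70, which makes muricholic acids in mice, was an exception, at 73.3 and 62.6 FPKM in Sham and 86.4 and 54.9 FPKM in VSG mice. Cyp3a25 was at 60.5 and 35.1 FPKM in Sham and 114 and 724 FPKM in VSG mice, and was listed at 0 in both Control mice. Cyp3a59 overlapped, at 7.88 and 5.11 FPKM in Sham and 13.97 and 0 FPKM in VSG mice. Another 5 of the 15 Cyp2c genes did not reach the filter. Among them, Cyp2c55 was at 0.06 and 0 FPKM in Sham and 0.30 and 2.34 FPKM in VSG mice. Cyp2c39 lay the other way, at 1.58 and 0.685 FPKM in Sham mice and listed at 0 in both VSG mice. Both families consist of near-identical copies among which reads may be split, so the level of a single member is uncertain.

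Conjugating enzymes, which attach glucuronic acid, sulfate or glutathione, had 11 of 34 genes higher (32.4%, against 18.9% of all genes) and 1 lower (2.94%, against 9.72%) without overlap and a median of 0.88. The bilirubin transferase Ugt1a1 was at 69.02 and 65.6 FPKM in Sham and 100.3 and 253 FPKM in VSG mice. Gstt1, a glutathione transferase, was at 97.7 and 22.3 and 145 and 179 FPKM, and Gstt3 at 5.49 and 2.65 and 10.2 and 21.1 FPKM. Much of the difference in Gstt1 lay in Sham mouse 2, and without that mouse the list median was 0.15. Of the receptors, Nr1i2, which encodes PXR, was lower after VSG, at 23.2 and 30.2 FPKM in Sham and 12.5 and 16.97 FPKM in VSG mice (−0.82 ± 0.26), with a transcript listed at 0 in one mouse but not another, while Nr1i3, which encodes CAR, was listed at 0 in all 4 mice, so that no level can be given for it.

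Bile acid synthesis begins with cholesterol 7α-hydroxylase, and its gene Cyp7a1 was higher in both VSG mice, at 68.3 and 13.2 FPKM, than in the Sham mice, of which one was at 4.58 FPKM and the other was listed at 0 (3.73 ± 1.08, adjusted p = 0.921). VSG mouse 1 was also well above the 2.28 and 2.60 FPKM of Control mice. Cyp8b1, which directs synthesis to cholic acid, was at 177 and 30.3 FPKM in Sham and 295 and 123 FPKM in VSG mice and overlapped. Cyp27a1 and Cyp7b1 of the alternative pathway overlapped too, at 136 and 100.1 and 165 and 128 FPKM for the former and 250.2 and 111 and 304 and 68.2 FPKM for the latter. The bile acid ligase Slc27a5 was higher, at 121 and 175 FPKM in Sham and 181 and 308 FPKM in VSG mice. In all, 5 of 15 genes of synthesis were higher (33.3%) and 0 lower without overlap, against 18.9% higher and 9.72% lower among all genes, and leaving out Sham mouse 2 lowered their median from 0.31 to 0.10.

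Transporters of bile acids and other organic anions were higher in 8 of 17 cases and lower in 0 (47.1%, against 18.9% and 9.72% of all genes in these directions). Abcb11, the bile salt export pump, was at 5.71 and 21.05 FPKM in Sham and 36.6 and 35.01 FPKM in VSG mice (1.60 ± 0.65). Abcb4, which exports phosphatidylcholine into bile, was at 25.3 and 19.3 FPKM in Sham and 81.2 and 43.4 FPKM in VSG mice (1.39 ± 0.38). For uptake, Slco1a1 was at 10.2 and 21.5 FPKM in Sham and 53.98 and 40.7 FPKM in VSG mice (1.59 ± 0.39), still below the 85.8 and 83.9 FPKM of Control mice. The main uptake carrier Slc10a1 was at 232 and 205 FPKM in Sham and 413 and 277 FPKM in VSG mice, and its neighbour in function Slco1b2 at 248 and 225 and 354 and 377 FPKM. The other 9 transporters overlapped, and 4 of them had a lower mean in VSG mice.

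**Figure D3:**
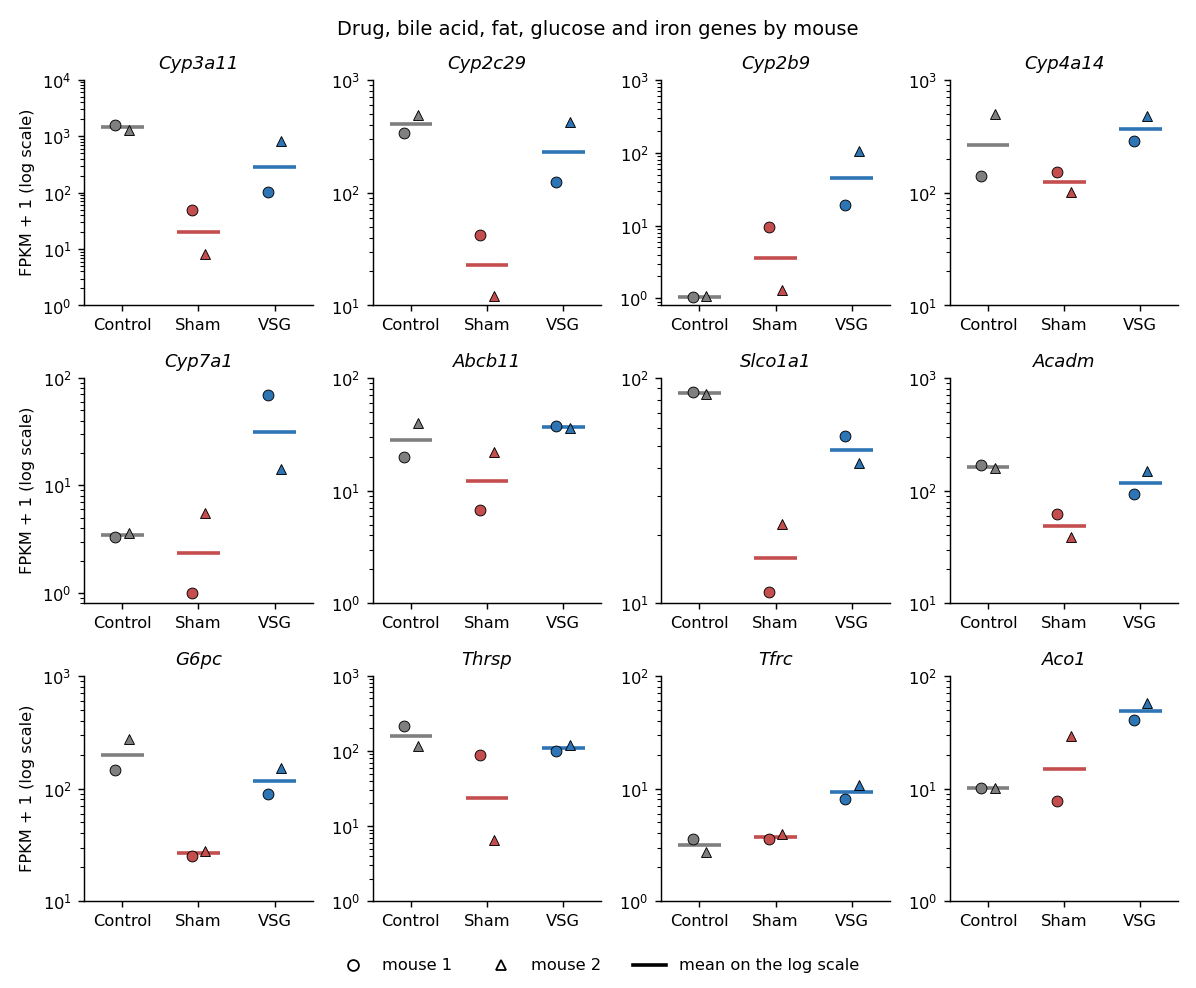
FPKM + 1 on a log axis for 12 metabolic and iron genes in each of the 6 mice (circles, mouse 1 of a group; triangles, mouse 2; lines, mean on the log scale of n = 2). Every VSG value lies above every Sham value in each panel. Cyp7a1, Cyp2b9, Tfrc and Aco1 are higher in VSG than in Control mice, whereas Cyp3a11 and Slco1a1 lie below the Control mice.

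Genes of fatty acid oxidation and ketone bodies were higher without overlap in 15 of 40 cases and lower in 3 (37.5% and 7.50%, against 18.9% and 9.72% of all genes), with a median of 0.38 that became 0.16 without Sham mouse 2. Acadm, the medium-chain acyl-CoA dehydrogenase, was at 60.8 and 37.7 FPKM in Sham and 92.1 and 148 FPKM in VSG mice. The peroxisomal genes Acaa1b and Ehhadh were at 377 and 128 and 58.3 and 61.98 FPKM in Sham and at 489.6 and 852 and 123 and 126 FPKM in VSG mice. Cyp4a14, the PPARα-inducible omega-hydroxylase, was at 151 and 101 FPKM in Sham and 284 and 473 FPKM in VSG mice, and Cyp4a10 at 163 and 103 and 274 and 267 FPKM. Ppara itself was lower, at 41.9 and 36.2 FPKM in Sham and 9.31 and 19.04 FPKM in VSG mice (−1.47 ± 0.70). One of its transcripts was listed at 0 in both VSG mice, and with the highest transcript alone, which is that one, the fitted difference was −4.85 and is no bound. Angptl4, another target of that receptor, was lower too, at 82.3 and 86.1 FPKM in Sham and 68.4 and 57.5 FPKM in VSG mice, whereas Cpt1a, the gate to mitochondrial oxidation, overlapped at 87.6 and 164 and 136 and 119.9 FPKM.

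Fat synthesis was higher in some enzymes and overlapped in others. Of 26 genes, 8 were higher (30.8%) and 1 lower (3.85%) without overlap, against 18.9% higher and 9.72% lower among all genes. Fatty acid synthase, Fasn, was at 12.8 and 7.72 FPKM in Sham and 13.4 and 7.72 FPKM in VSG mice, and Scd1, which desaturates stearate, at 27.7 and 4.32 and 74.1 and 5.12 FPKM, far under the 1123 and 308 FPKM of Control mice. Fads1, the desaturase of polyunsaturated fatty acids, was at 10.1 and 32.96 FPKM in Sham and 84.2 and 40.8 FPKM in VSG mice (1.62 ± 0.66). Dgat1, which makes triglyceride, was at 4.14 and 4.58 FPKM in Sham and 8.08 and 9.45 FPKM in VSG mice, and Gpat4 at 8.02 and 16.5 and 22.4 and 46.1 FPKM. Mogat1, a monoacylglycerol acyltransferase that fatty liver is known to induce, was the 1 member lower, at 5.99 and 1.17 FPKM in Sham mice and listed at 0 in VSG mice. It passed the filter through the Sham mice alone, so it had to differ, and it makes up the lower count of this list alone. Thrsp, a lipogenic protein, was at 85.9 and 5.56 FPKM in Sham and 99.9 and 120.4 FPKM in VSG mice, where Sham mouse 1 came close to the VSG mice. Pparg, the receptor of fat storage, overlapped at 11.1 and 2.58 FPKM in Sham and 6.75 and 8.73 FPKM in VSG mice. Of the 27 genes of lipid droplets, 2 were higher and 2 lower without overlap (7.41% each), both under the shares of all genes.

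Cholesterol synthesis and uptake genes were lower in 4 of 24 cases (16.7%, against 9.72% of all genes) and higher in 0 without overlap. Idi1, an isomerase of the pathway, was at 49.8 and 32.9 FPKM in Sham and 22.9 and 6.01 FPKM in VSG mice, and Msmo1, a sterol oxidase of the same pathway, at 103 and 74.6 and 71.8 and 14.6 FPKM. VSG mouse 2 was the lowest of the 4 mice in both genes. VSG mouse 1 also lay below both Sham mice, though only slightly in Msmo1. Sqle, the squalene epoxidase, was at 27.3 and 40.1 FPKM in Sham and 38.7 and 1.21 FPKM in VSG mice, and Fdps at 157 and 133 and 195 and 15.8 FPKM. Without VSG mouse 2 the median of the list moved from −0.47 to 0.37.

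Glucose and glycogen genes were higher without overlap in 12 of 34 cases (35.3%) and lower in 0, against 18.9% higher and 9.72% lower among all genes, mostly by less than 2-fold. G6pc, the phosphatase that releases glucose from the hepatocyte, was at 24.3 and 27.02 FPKM in Sham and 87.8 and 149.8 FPKM in VSG mice (2.12 ± 0.42, adjusted p = 0.569), against 144 and 272 FPKM in Control mice. Pklr, the liver pyruvate kinase of the opposing pathway, was at 30.2 and 43.9 FPKM in Sham and 117 and 74.1 FPKM in VSG mice (1.33 ± 0.37). The glucose transporter Slc2a2 was at 38.6 and 35.2 FPKM in Sham and 56.1 and 76.9 FPKM in VSG mice, and glycogen phosphorylase Pygl at 67.98 and 36.4 and 88.7 and 105 FPKM. Pck1, of gluconeogenesis, overlapped at 454 and 688 and 452 and 1052 FPKM. Genes of both glucose output and glucose use are among those that did not overlap.

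Amino acid breakdown and the urea cycle had 13 of 44 genes higher without overlap (29.5%, against 18.9% of all genes) and 0 lower, with a median of 0.48 that became 0.17 without Sham mouse 2. Cps1, which starts the urea cycle, was at 70.5 and 115 FPKM in Sham and 147 and 249.5 FPKM in VSG mice, and Ass1 at 300.3 and 256 and 334 and 545 FPKM, still below the 1309 and 1302 FPKM of Control mice. Tdo2, which opens tryptophan, was at 269 and 277 FPKM in Sham and 407 and 714 FPKM in VSG mice. Nuclear-coded subunits of oxidative phosphorylation were higher in 16 of 56 cases (28.6%) and lower in 1, against 18.9% higher and 9.72% lower among all genes. That pattern rested on Sham mouse 2, for the median of 0.37 became −0.17 without it.

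Of 23 genes of hepatokines and the growth hormone axis, 5 were higher (21.7%), 2 lower (8.70%) and 16 overlapped, with shares close to the 18.9% and 9.72% of all genes. Their median was −0.07 and changed sign when Sham mouse 2 or either VSG mouse was left out. Among the higher ones were Igf1, a growth factor that growth hormone induces, at 20.7 and 43.9 FPKM in Sham and 58.02 and 54.5 FPKM in VSG mice, Igfals, which keeps it in the circulation, at 47.1 and 41.6 and 76.1 and 65.2 FPKM, and Igfbp3, at 1.54 and 1.01 and 2.34 and 2.98 FPKM. Inhbc, an activin subunit of the liver, was lower, at 49.4 and 63.2 FPKM in Sham and 47.8 and 36.2 FPKM in VSG mice. Fgf21, a hepatokine of nutrient stress, overlapped at 21.1 and 116 FPKM in Sham and 121 and 10.1 FPKM in VSG mice. Angptl8, an insulin-responsive inhibitor of lipoprotein lipase, was higher, at 28.5 and 34.5 and 94.9 and 46.7 FPKM. Sex-biased genes lay in no single direction. Of 14 female-biased genes, 3 were higher (21.4%) and 2 lower (14.3%) without overlap, and of 20 male-biased genes 4 (20%) and 2 (10%). These shares were not far from the 18.9% and 9.72% of all genes.

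The clock and the immediate early genes depend on the hour and manner of tissue collection, which the labels do not give. Dbp, an output of the clock, was at 40.4 and 17.1 FPKM in Sham and 48.2 and 68.8 FPKM in VSG mice, and the clock repressor Nr1d1 at 18.96 and 15.6 and 63.3 and 22.1 FPKM, while Per2 overlapped at 1.30 and 3.62 and 1.82 and 1.74 FPKM. In all, 5 of 19 clock genes were higher (26.3%, against 18.9% of all genes) and 1 lower (5.26%, against 9.72%) without overlap. Of 22 immediate early genes, 6 were higher (27.3%, against 18.9% of all genes) and 4 lower (18.2%, against 9.72%) without overlap, and the median of 0.42 became −0.08 without Sham mouse 1 and −0.13 without VSG mouse 1. Fos was at 0.966 and 1.71 FPKM in Sham and 71.6 and 2.72 FPKM in VSG mice, so that VSG mouse 1 alone was high. Jun, at 7.06 and 13.9 and 74.4 and 18.2 FPKM, and Zfp36, at 48.8 and 38.3 and 149.9 and 69.5 FPKM, were higher in both VSG mice and highest in that mouse, and so was Dusp1, at 8.34 and 4.06 and 25.9 and 20.4 FPKM. The 4 lower ones were Gadd45g, a stress-response gene, at 15.3 and 42.5 FPKM in Sham and 14.7 and 7.89 FPKM in VSG mice, and Myc, Ier5 and Fosl2, each under 5 FPKM. The part of collection in these values was not tested.

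Among the remaining named genes, the smallest adjusted p among genes above 0 in all mice belonged to Naca, a chaperone of nascent proteins, at 199 and 151 FPKM in Sham, 34.2 and 40.3 FPKM in VSG and 193 and 187 FPKM in Control mice (−2.19 ± 0.24). Ngdn, a protein of ribosome assembly, was at 16.5 and 10.5 FPKM in Sham and 3.41 and 2.42 FPKM in VSG mice, and the ubiquitin ligase scaffold Cul1 at 15.8 and 21.5 and 3.66 and 5.72 FPKM. In the other direction, Upp2, a uridine phosphorylase of the liver, was at 15.9 and 5.91 FPKM in Sham and 45.1 and 145 FPKM in VSG mice (2.93 ± 0.69), and at 182 and 173 FPKM in Control mice. Smpdl3a, a target of the sterol receptor LXR, was at 1.99 and 4.51 FPKM in Sham and 17.97 and 24.3 FPKM in VSG mice (2.43 ± 0.37, adjusted p = 0.409). Scara5, a receptor that takes up ferritin and a member of the male-biased list, was lower, at 8.05 and 18.5 FPKM in Sham and 5.37 and 1.76 FPKM in VSG mice.

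**Figure D4:**
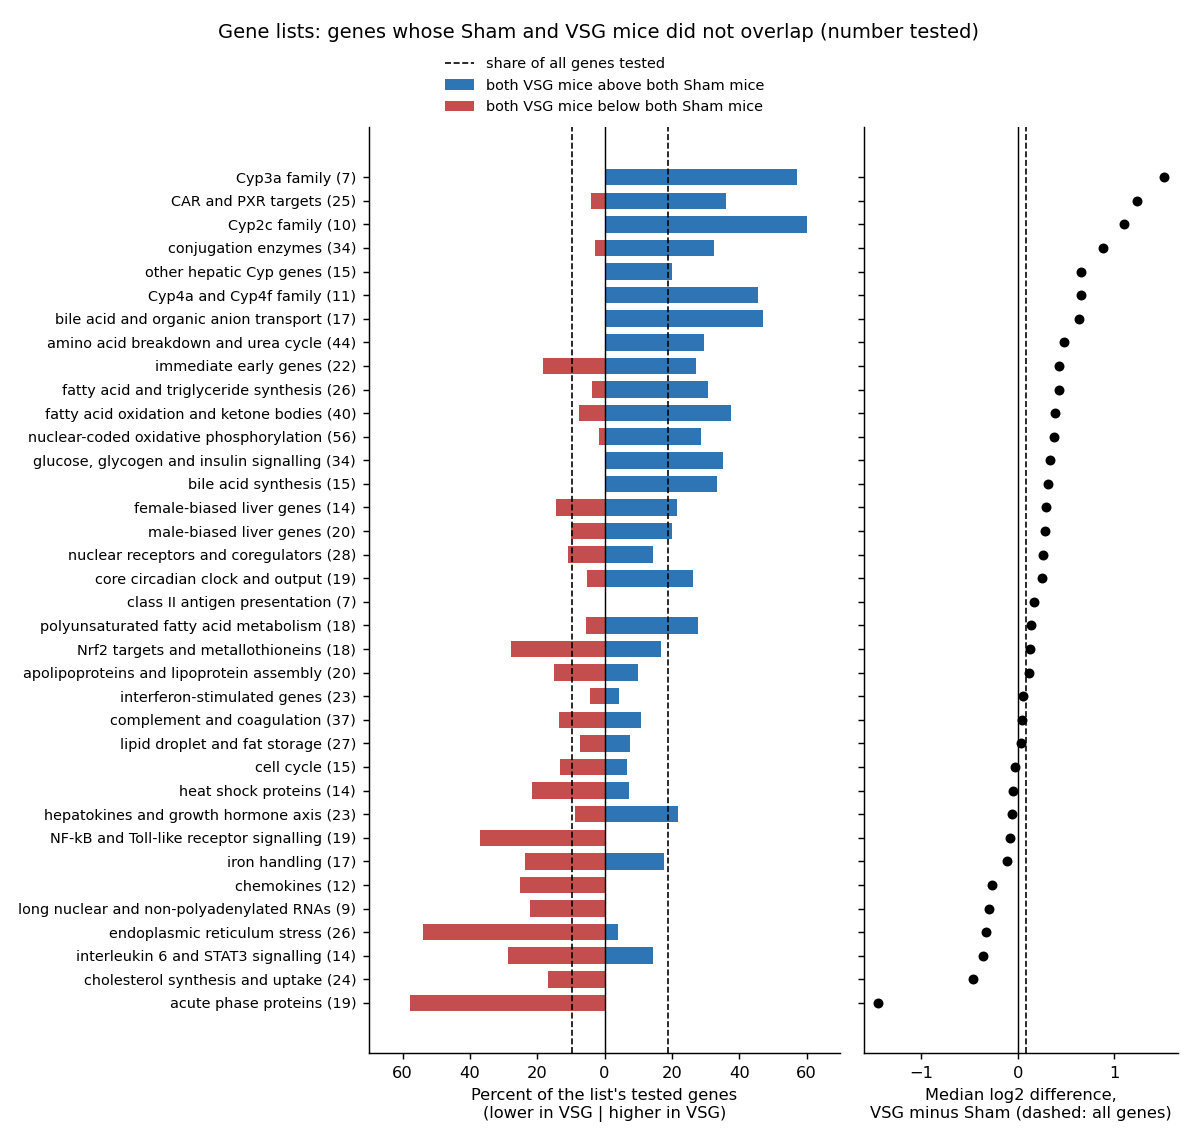
Pathway lists with at least 7 tested genes, cell type markers left out. Left, the percent of each list's tested genes (number in brackets) whose Sham and VSG mice did not overlap, lower in VSG to the left in red and higher to the right in blue, with dashed lines at the share of all genes, 9.72% and 18.9%. Right, the median log2 difference of each list, with the dashed line at 0.08 for all genes. Acute phase proteins (57.9%) and endoplasmic reticulum stress (53.8%) hold the longest red bars, and the Cyp2c and Cyp3a families the longest blue ones among the lists drawn. The medians of 21 of all 46 lists change sign when 1 of the 4 mice is left out.

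The livers also differed in markers of cells other than hepatocytes, and in bulk tissue fewer cells of a type and less RNA per cell cannot be told apart. Markers of stellate cells and fibroblasts were higher after VSG in 8 of 9 tested cases and lower in 0 (against 18.9% higher and 9.72% lower among all genes), with summed levels of 26.8 and 39.3 FPKM in Sham, 88.2 and 130.3 FPKM in VSG and 102.3 and 89.7 FPKM in Control mice. Ecm1, a matrix protein made by stellate cells, was at 2.97 and 4.48 FPKM in Sham and 18.4 and 34.5 FPKM in VSG mice (2.49 ± 0.42, adjusted p = 0.442), and Colec11, a collectin, at 4.32 and 2.71 and 11.2 and 20.1 FPKM. Both have 2 transcripts, 1 of which was listed at 0 in one mouse and well above it in another. The other 9 of the 18 markers did not reach the filter, among them Timp1, an inhibitor of matrix proteases, at 0.947 and 5.76 FPKM in Sham and 0.265 and 0.758 FPKM in VSG mice, and Lrat and Cygb passed it through the VSG mice alone. Rgs5, a pericyte gene, was at 1.89 and 1.79 FPKM in Sham and 7.06 and 8.78 FPKM in VSG mice (1.65 ± 0.23), above the 1.92 and 2.14 FPKM of Control mice. Col1a1, the fibrillar collagen of scar tissue, overlapped and stayed low, at 0.638 and 2.92 and 1.79 and 1.20 FPKM.

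Markers of sinusoidal endothelium were higher in 6 of 6 tested cases, against 18.9% of all genes. The other 9 of the 15 markers did not reach the filter. Among these were the scavenger receptor gene Stab1, at 0 and 1.497 FPKM in Sham and 0.806 and 0.619 FPKM in VSG mice, and Lyve1, a hyaluronan receptor, at 1.39 and 0.614 and 0.913 and 0.893 FPKM, both of which overlapped. Flt4 passed the filter through the VSG mice alone. The sum of the 6 tested markers was 15.04 and 8.47 FPKM in Sham, 42.2 and 39.4 FPKM in VSG and 53.5 and 23.1 FPKM in Control mice. Clec4g, a lectin of these cells, was at 3.93 and 2.19 FPKM in Sham and 18.5 and 17.4 FPKM in VSG mice (2.25 ± 0.79), and the Fc receptor Fcgr2b at 2.53 and 2.98 and 8.73 and 8.58 FPKM (1.36 ± 0.21, adjusted p = 0.412). In Fcgr2b the VSG mice resembled the Control mice, at 8.12 and 6.89 FPKM. In Clec4g the Control mice disagreed, at 26.1 and 4.35 FPKM, and this spread is part of its SE. Kupffer cell markers summed to 184 and 204 FPKM in Sham and to 139 and 474 FPKM in VSG mice, and Clec4f, the marker most particular to them, was at 2.11 and 8.75 FPKM in Sham and 6.31 and 48.8 FPKM in VSG mice. VSG mouse 2 was thus alone in its high level, and 3 of 15 markers were higher without overlap, a share close to the 18.9% of all genes.

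Erythroid transcripts, chiefly globins, were higher in 4 of 4 tested cases (against 18.9% of all genes), with sums of 382 and 154 FPKM in Sham and 447 and 1902 FPKM in VSG mice. Neutrophil markers other than Lcn2, which hepatocytes make as well, summed to 43.1 and 48.0 FPKM in Sham, 24.0 and 18.5 FPKM in VSG and 15.1 and 6.58 FPKM in Control mice. No marker of T, NK or B cells passed the filter. Hepatocyte markers summed to 23048 and 20296 FPKM in Sham and 25976 and 22782 FPKM in VSG mice, so the sums overlapped. Of the 9 tested hepatocyte markers, 5 were higher without overlap (55.6%, against 18.9% of all genes), 0 lower and 4 overlapped. VSG mouse 2 had the most globin and Kupffer cell RNA. It was also the lower of the VSG mice in Hamp and the higher in Cyp3a11 and Cyp2b9, whereas VSG mouse 1 was the higher in Cyp7a1, Abcb4 and Fads1. With 2 mice a group, 1 of them is always the extreme, so no joint movement can be read from these genes. The part of the markers in those values was not tested.

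**Figure D5:**
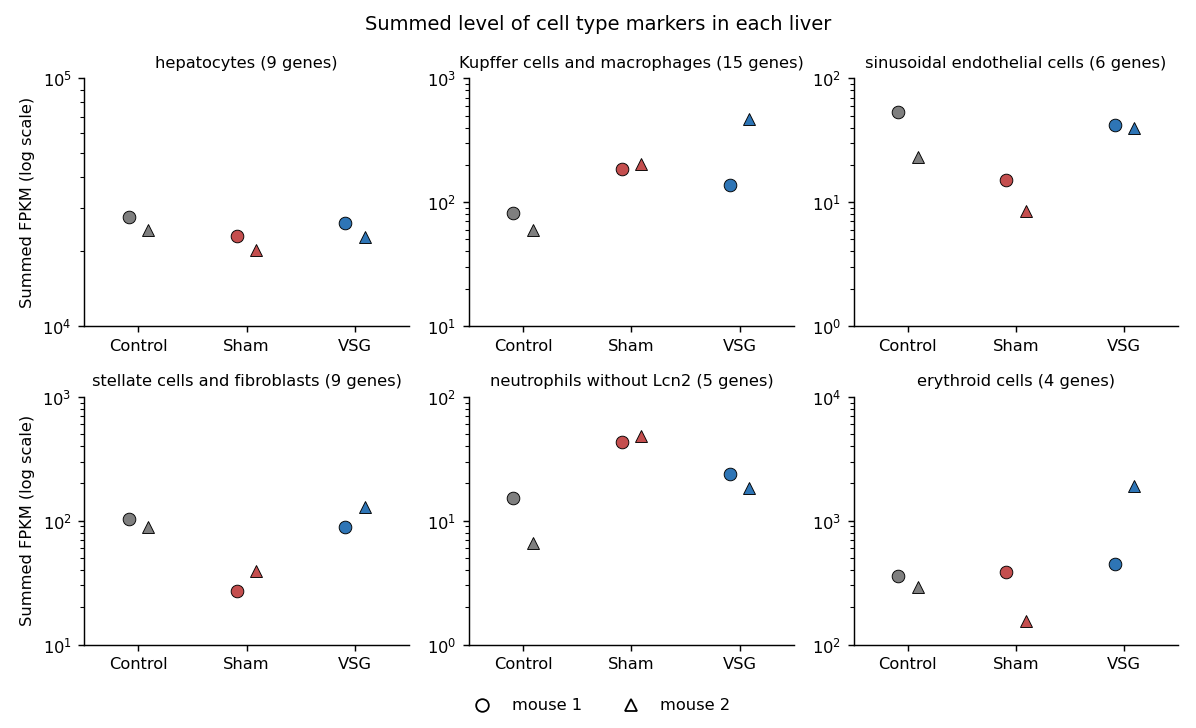
Summed FPKM on a log axis of the markers of 6 cell types in each of the 6 mice (circles, mouse 1; triangles, mouse 2; the number of genes is in brackets). Both VSG mice lie above both Sham mice for sinusoidal endothelium, stellate and erythroid cells and below them for neutrophil markers other than Lcn2. Kupffer cell markers are high in VSG mouse 2 alone.

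Accessible chromatin at the promoters was taken from FAIRE-seq of the same livers. The authors kept the peaks that were reproducible between the 2 mice of a group, so the lists hold no replicates and carry no test. A peak missing from a list may be one that was not reproducible. Within 1000 bp of a start in mm9, 90.2% of 9181 tested genes had a peak in Sham and 91.1% in VSG mice. Of genes at least 2-fold higher without overlap, 81.1% of 371 had a peak in Sham and 80.9% in VSG, and of those at least 2-fold lower, 86.1% of 202 in Sham and 84.2% in VSG. A peak in Sham alone was found at 8 of these 202 genes (3.96%) and a peak in VSG alone at 4 (1.98%). The same counts were 10 (2.70%) and 9 (2.43%) of the 371 genes that were higher, against 1.10% and 2.07% of all tested genes, so that peaks in Sham alone were more frequent in both sets than over all genes. Where both groups had a peak, its signal was lower in VSG for 64.9% of 8178 genes tested, with a median ratio of VSG to Sham of 0.923. The share was 66.3% of 291 genes among the higher ones and 67.5% of 166 among the lower ones. The signal at G6pc was 1.04 in Sham and 0.432 in VSG mice, at Abcb11 0.774 and 0.401, at Orm2 0.852 and 0.438 and at Cxcl1 1.02 and 0.511. These 4 genes were chosen after their values were seen, and how the signal was scaled between groups is not given in the sources used here. Hamp was among the lower genes with a peak in Sham alone. In mm9 it occupies bases 31727390 to 31729036 of chromosome 7, read from the minus strand, and the Sham peak over its start ran from 31728992 to 31729733, with a signal of 0.487, whereas the VSG list held no peak there. At Tfrc, on chromosome 16 from 32609006 to 32632880, the peak over the start had a signal of 1.17 in Sham and 1.19 in VSG mice. Cyp3a11 had a peak in VSG alone, from 146691419 to 146691625 on chromosome 5, with a low signal of 0.197, and at Cyp2c29, Hamp2 and Cyp7a1 no peak lay within this distance in either group.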

How the data were processed

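RNA and accessible chromatin were measured in the same livers. The labels describe poly(A) selection and the study's methods ribosomal depletion, and reads of 50 bp were sequenced. The authors aligned them to mm9 with TopHat2 and deposited FPKM per RefSeq transcript from Cufflinks. FPKM is already scaled per library and length, so counts and depths are unknown beyond the ratio that the lowest values give. FAIRE peaks carry the F-seq signal that the authors deposited, kept by IDR over 2 mice.

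Of 34933 identifiers, 566 extra copies and 321 without a symbol were left out, and FPKM was summed over the transcripts of each of 24023 genes. Genes with FPKM of at least 1 in at least 2 of the 4 mice were fitted on log2(FPKM + 1) with limma 3.58.1 (variance trend) in R 4.3.3 over all 6 mice, with Benjamini-Hochberg adjustment over the 9334 genes at an FDR of 10%. The script was tested on simulated data. Named genes are those passing the test, the 15 largest differences without overlap in each direction (mean FPKM of at least 5, above 0 in all 4 mice), up to 4 per list and genes the study names. Further members of a list were named after their values were seen. The 47 lists and the members were chosen with earlier results of these data known. Promoter peaks and positions used NCBIM37, and promoter sequences were matched by symbol to RefSeq (GRCm38.p6) for 7490 tested genes. Other steps used Python 3.11.15, numpy 2.4.6, pandas 2.3.3 and matplotlib 3.10.9. The authors' fold changes, p-values and lists of variable sites were not used. The alternatives of the closing section include leaving out each of the 4 mice, and 2 of them were added after the data were seen.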

Additional observations from a re-analysis of the deposited data

How the results depend on the processing

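The 5 genes that passed limma became 8 with a pseudocount of 0.1, 17 of 15353 genes without the filter, 0 of 7203 with an FPKM of at least 1 in all 4 mice, 0 of 8300 without genes listed at 0, 9 with only the Sham and VSG mice in the fit and 0 with the replicate number as a block. Leaving out 1 mouse gave 0 to 86 genes, with 86 without Sham mouse 2, 31 without Sham mouse 1 and 0 without either VSG mouse, where the lone mouse is assumed to vary like the others. The replicate numbers mark no shared litter or day in the labels. Same-numbered Sham and VSG mice deviated together with a correlation of 0.032 across genes (Sham and Control 0.150, VSG and Control 0.055). With 2 mice a group, these correlations cannot show whether same-numbered mice shared a litter or day. Without the filter, 3095 genes were higher and 1665 lower without overlap. Leaving out 1 mouse gave 3102 to 3976 higher and 2180 to 2840 lower, as 3 mice overlap less often. The genes at least 2-fold higher were 201 and those lower 76 with an FPKM of at least 1 in all 4 mice, 235 and 92 without genes listed at 0, and 477 to 870 and 353 to 504 without 1 mouse. The median difference of 21 of 46 lists changed sign when 1 mouse was left out, among them iron handling, interleukin 6 and STAT3 signalling, chemokines, cholesterol synthesis, oxidative phosphorylation and Kupffer cell markers, while those of acute phase proteins, endoplasmic reticulum stress and CAR and PXR targets kept theirs. Among 164 named genes, 18 values lost the limma threshold under an alternative and 9 gained it. The cause was not tested in any of these cases. Median-of-ratios scaling moved the median of all genes from 0.08 to 0.003. What depth limits cannot be given from FPKM, beyond a lowest relative depth of 0.677 in Sham mouse 1.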

Other observations

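In 78 genes the lowest VSG mouse was at least 2-fold above the highest Sham mouse (0.836% of the genes tested), and in 67 the highest VSG mouse was at least 2-fold below the lowest Sham mouse (0.718%). Of these, 34 and 21 were above 0 in all 4 mice. This rule was chosen after the data were seen. Slc17a4, a transporter of organic anions, was at 4.48 and 2.61 FPKM in Sham and at 16.2 and 19.3 FPKM in VSG mice, above the 5.94 and 5.52 FPKM of Control mice. Alpl, the tissue-nonspecific alkaline phosphatase, was at 1.76 and 2.17 FPKM in Sham and 10.6 and 9.92 FPKM in VSG mice, also above Control mice at 3.67 and 1.47 FPKM. Aox1, an aldehyde oxidase, was at 5.04 and 3.53 FPKM in Sham and 13.04 and 19.2 FPKM in VSG mice.

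Abcb10, a mitochondrial transporter linked to heme synthesis, was at 1.41 and 1.18 FPKM in Sham, 5.81 and 7.81 FPKM in VSG and 6.95 and 6.30 FPKM in Control mice. The water channel Aqp1 was at 3.49 and 1.71 FPKM in Sham, 8.94 and 9.94 FPKM in VSG and 14.3 and 10.3 FPKM in Control mice. In the other direction Dnajc12, a cochaperone of aromatic amino acid hydroxylases, was at 40.02 and 46.9 FPKM in Sham, 14.7 and 13.2 FPKM in VSG and 15.1 and 22.1 FPKM in Control mice. Efna1, an ephrin, was at 51.0 and 51.8 FPKM in Sham and 21.6 and 24.9 FPKM in VSG mice, under the 33.6 and 39.5 FPKM of Control mice. None of these genes passed the adjusted limma test, in which their adjusted p lay between 0.335 and 0.624.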
